A study of Mus musculus with 6 samples.

Results

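Epicardial mesothelial cells form the sheet that covers the outside of the heart. They were chosen by measured UMIs of 7 mesothelial genes: Upk3b, Msln, Krt19, Lrrn4, Upk1b, Nkain4 and Gpm6a. A barcode counted as a cell with at least 1000 unique molecular identifiers (UMIs, each marking 1 captured RNA molecule). It counted in 1 library only, the one with most of its UMIs, and was taken as an epicardial mesothelial cell where at least 4 of the 7 genes had a UMI. This gave 589 cells of 12493 kept cells (4.71%), out of 18283 deposited barcodes. The Dsp_het libraries held 226, 83 and 96 of them, 405 in all, and the control libraries held 44, 51 and 89, 184 in all.

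The study profiled EGFP-positive cells sorted from the non-myocyte fraction of collagenase-digested whole hearts of C57BL/6 mice aged 3 to 6 months, with 10x Genomics 3′ libraries. The Dsp_het group (3 libraries) has the genotype Wt1CreERT2:Rosa26mTmG:DspW/F, with 1 conditional allele of Dsp, the gene of desmoplakin. The control group (3 libraries) has the genotype Wt1CreERT2:Rosa26mTmG and no conditional Dsp allele. All mice thus carried both the Wt1-driven, tamoxifen-dependent Cre and the reporter that exchanges membrane Tomato for membrane GFP where Cre has acted. Of the kept cells, 9487 met a rule of endothelial markers alone and are called endothelial-rule cells. They met no fibroblast, macrophage or mural rule and were not epicardial mesothelial cells. Fibroblast-rule cells and those of the other rules are defined likewise. The EGFP sort was thus not limited to cells with a mesothelial or fibroblast profile. The labels used here give no tamoxifen dose, no time of induction and no statement that a library is 1 animal, so p-values measure only the spread between these libraries.

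The epicardium is a mesothelium, an epithelium that also holds features of mesenchyme. In development it is known to express Wt1 and Tbx18, to make retinoic acid through Aldh1a2, and to release cells that become fibroblasts and mural cells of the heart. In the adult it is mostly quiescent and is known to switch on stress and fetal genes after injury. Desmoplakin ties keratin and desmin filaments to desmosomes, and loss of a DSP allele is a known cause of arrhythmogenic cardiomyopathy in humans.

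The deposited libraries held between 2252 and 3673 barcodes and between 7573157 and 17083660 UMIs. Of 13183 distinct barcodes, 1689 occurred in several libraries, 243 of them with at least 1000 UMIs in more than 1 library. Of the 589 epicardial mesothelial barcodes, 335 also occurred elsewhere and 72 of these had at least 1000 UMIs in another library. The share that also occurred elsewhere was 47.8%, 66.3% and 89.6% in Dsp_het libraries 1, 2 and 3, against 36.4%, 58.8% and 44.9% in control libraries 1, 2 and 3. Dsp_het library 2 and control library 3 carried Xist in these cells, at 348.2 and 224.6 normalized CPM (CPM, UMIs of a gene scaled to a common library total, here after TMM scaling), and the other 4 libraries had at most 0.551, so each group held 1 Xist-positive library.

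Upk3b and Upk1b encode uroplakins, membrane proteins also known from the bladder lining. Msln encodes mesothelin, a surface protein anchored by a lipid. Krt19 encodes a keratin of simple epithelia, Nkain4 a partner of the sodium pump's beta subunit, and Lrrn4 and Gpm6a membrane proteins. The stretches from 250 bases before to 50 bases after the annotated start site (RefSeq, GRCm38.p6) were available for Upk3b, Lrrn4 and Gpm6a, with 2 start sites for Gpm6a, and they are shown because all 3 genes mark the same cells. Capitals mark the only matches to CATTCC or its reverse complement, the core recognised by TEAD factors, which carry YAP signalling.
Upk3b (chr5:136038246-136038545, plus strand): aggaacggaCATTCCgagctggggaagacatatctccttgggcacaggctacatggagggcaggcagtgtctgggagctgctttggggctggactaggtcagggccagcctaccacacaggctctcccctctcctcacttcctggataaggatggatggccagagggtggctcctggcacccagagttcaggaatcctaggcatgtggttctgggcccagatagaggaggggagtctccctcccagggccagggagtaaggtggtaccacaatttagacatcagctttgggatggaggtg
Lrrn4 (chr2:132880813-132881112, minus strand): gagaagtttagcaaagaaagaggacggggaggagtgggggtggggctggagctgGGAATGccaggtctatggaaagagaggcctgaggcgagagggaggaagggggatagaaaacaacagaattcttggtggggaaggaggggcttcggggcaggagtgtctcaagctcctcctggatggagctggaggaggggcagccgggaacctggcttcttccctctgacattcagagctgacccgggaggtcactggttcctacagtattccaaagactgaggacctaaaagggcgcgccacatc
Gpm6a (chr8:54779184-54779483, plus strand): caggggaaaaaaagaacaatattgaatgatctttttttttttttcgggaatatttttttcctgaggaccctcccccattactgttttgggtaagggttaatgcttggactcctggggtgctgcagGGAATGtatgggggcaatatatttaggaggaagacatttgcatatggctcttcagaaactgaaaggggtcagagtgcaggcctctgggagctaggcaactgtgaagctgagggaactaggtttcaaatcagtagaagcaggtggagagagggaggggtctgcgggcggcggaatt

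The match lay 241 bases before the start site in Upk3b, 196 bases before it in Lrrn4 and 125 bases before it at the upstream start site of Gpm6a. The downstream Gpm6a stretch had none. CATTCC on either strand was present for 3 of 3 of these genes, for 7 of 21 of the leading genes described below that had a promoter (these 21 include the 3 rule genes), and for 16.6% of all 27025 genes (14.7% of 32851 promoters). The letters GCGTGGGNG, a core bound by WT1 and EGR1, were found for 0 of 3 and 0 of 21 genes, against 2.18% of all genes. The GATA core AGATAA was found for 0 of 3 and 3 of 21 genes, against 12.7% of all genes. A match is a string of letters and shows no binding.

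Because the 7 genes chose the cells, their levels are a description. Pooled over the libraries, Upk3b (chromosome 5, 136038496 to 136046487, plus strand, GRCm38) had 2043 CPM in epicardial mesothelial cells and 2.74 CPM in all other kept cells. Msln (chromosome 17, 25748613 to 25754378, minus strand) had 1390 CPM against 1.79 CPM. Krt19 (chromosome 11, 100140810 to 100148665, minus strand) had 1299 against 3.39 CPM, and Lrrn4 (chromosome 2, 132868305 to 132880891, minus strand) 741.4 against 0.701 CPM. Upk3b was 1842, 2343 and 2088 CPM in Dsp_het libraries 1, 2 and 3, and 2151, 2219 and 1994 CPM in control libraries 1, 2 and 3. Over the 6 libraries Upk1b lay between 463.6 and 745.7 CPM, Lrrn4 between 595.1 and 910.9 CPM and Gpm6a between 1015 and 1471 CPM.

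Most of the cells lay far inside the threshold. All 7 genes were seen in 463 cells, 6 in 73, 5 in 28 and 4 in 25. The 25 cells with 4 genes were shallow, with a median of 2094 UMIs, yet gave a median of 5251 CPM over the 7 genes together. Just outside, 22 cells with 3 of the genes had a median of 6188 UMIs and 841.7 CPM. Of these 22, 6 met an endothelial rule and 7 a fibroblast rule, each of at least 4 of 7 markers of that type.

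Beyond the 7 genes, 23 others led the list of 30 genes that stood highest over the remaining cells in every library. Several belong to a polarised simple epithelium. Krt18 and Krt8, partner keratins, had 528.6 and 335.9 CPM in epicardial mesothelial cells against 0.851 and 0.417 CPM elsewhere. Cldn15, a tight junction claudin that forms a channel for cations, had 663.6 against 10.03 CPM. Ezr, the linker of actin to apical membrane, and its scaffold Slc9a3r1 had 843.4 and 438.3 CPM against 17.2 and 12.97 CPM.

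Others encode secreted, transport or surface proteins. Muc16, a large mucin, had 224.7 CPM in epicardial mesothelial cells against 0.367 CPM elsewhere. Atp1b1, the beta subunit of the sodium pump, had 841.4 against 5.61 CPM. Efemp1 (fibulin 3) and Fmod (fibromodulin), matrix proteins, had 1340 and 371.4 CPM against 16.8 and 0.851 CPM. Aldh1a2, the retinoic acid enzyme, had 357.8 against 4.17 CPM. Myl7, the myosin light chain of atrial muscle, was also on the list at 487.8 against 1.77 CPM, while the summed cardiomyocyte markers described below were at most 83.6 CPM in a library.

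**Figure D1:**
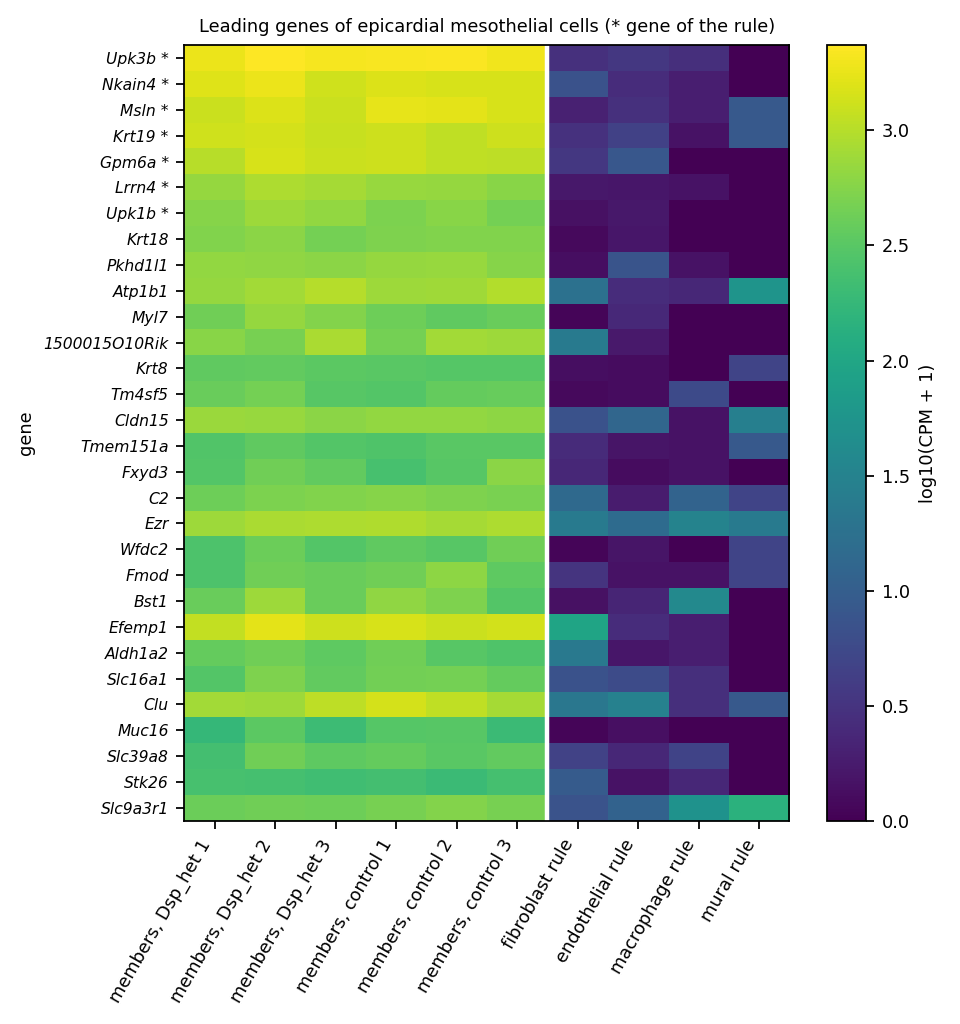
Level of the 30 leading genes (rows, ordered by the lowest ratio over libraries) as log10(CPM + 1), in the summed epicardial mesothelial cells of each library (left of the white line, Dsp_het libraries and then control libraries) and in pooled cells of 4 other rules. All 6 libraries share the pattern, with Upk3b between 1842 and 2343 CPM, and the fibroblast-rule cells reach 92.5 CPM for Efemp1.

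The defining markers of other cell types ranged from low to abundant in these cells. Pecam1 and Tie1 (endothelial) had 15.1 and 6.14 CPM in epicardial mesothelial cells, against 697.9 and 312.8 CPM in endothelial-rule cells. Lum and Dpt (fibroblast) had 26.0 and 10.5 CPM, against 2041 and 1070 CPM in fibroblast-rule cells. Lum was at 229.2 CPM in control library 2 and between 3.08 and 18.9 CPM in the other libraries. By contrast Dcn, the matrix proteoglycan decorin, was at 6856 CPM in the epicardial mesothelial cells themselves, against 23320 CPM in fibroblast-rule cells. Esam and Tek, known as endothelial genes, had 266.3 and 60.2 CPM, against 617.8 and 201.3 CPM in endothelial-rule cells. Kdr (endothelial) had 185.1 against 1205 CPM. Col1a1 and Col1a2 (fibroblast) had 444.9 and 923.1 CPM, against 1558 and 1951 CPM in fibroblast-rule cells. Dcn was between 6030 and 7926 CPM and Esam between 244.1 and 298.9 CPM in all 6 libraries.

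As whole lists of 7 markers, endothelial genes summed to 578.3, 691.5 and 498.2 CPM in Dsp_het libraries and 680.9, 698.3 and 750.2 CPM in control libraries (6208 CPM in endothelial-rule cells; exact permutation p = 0.2). Fibroblast genes, mostly Dcn, summed to 7080 to 9282 CPM in Dsp_het and 7413 to 9469 CPM in control libraries. Macrophage genes summed to 29.3 to 111.8 CPM in Dsp_het and 30.8 to 40.4 CPM in control libraries, and mural genes to 47.2 to 178.2 and 38.6 to 132.5 CPM. Cardiomyocyte genes summed to 17.6, 36.6 and 38.7 CPM in Dsp_het and 52.4, 83.6 and 59.3 CPM in control libraries, without overlap (exact permutation p = 0.1). Erythrocyte genes stayed between 23.5 and 44.5 CPM and Schwann or neural genes between 6.16 and 18.1 CPM in all libraries, with Sox10, Cdh19 and Slc4a1 among the markers at 0. Pooled over libraries, no endothelial, fibroblast, macrophage, mural or cardiomyocyte marker was at 0. Whether RNA of other cells took part in the gene results was not tested beyond leaving out the cells described next.

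Of the 589 cells, 141 also met the endothelial (68), fibroblast (82) or macrophage (1) rule, and 0 met the mural rule. A further rule, of cardiomyocyte markers, was met by 5 cells and did not count towards the 141. The 141 were 42, 16 and 39 cells in Dsp_het libraries 1, 2 and 3 and 7, 8 and 29 cells in control libraries 1, 2 and 3. No doublet caller was run, and values without these 141 cells are given beside the genes of fatty acid uptake, Igfbp3, Bnc1 and Lims2.

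Transcription factors of the epicardium were detected in many of the cells at full depth. Wt1 had a UMI in 80.0% of epicardial mesothelial cells and Tbx18 in 59.4%, against 10.0% and 0.0527% of endothelial-rule cells. Of fibroblast-rule cells, 12.2% held a UMI of Wt1 and 8.21% one of Tbx18. Bnc1, a zinc-finger factor of mesothelia, was seen in 59.6% of epicardial mesothelial cells, against 0.0422% of endothelial-rule and 0.428% of fibroblast-rule cells. Tcf21, a factor of epicardial cells that become fibroblasts, was seen in 42.4% of epicardial mesothelial and 84.9% of fibroblast-rule cells. With every cell thinned to 1000 UMIs, so that depth no longer differed, Wt1 was seen in 24.1% of epicardial mesothelial against 2.75% of endothelial-rule cells, and Tcf21 in 7.13% of epicardial mesothelial against 38.3% of fibroblast-rule cells. The thinned shares of Tbx18 and Bnc1 were 12.7% and 12.4%.

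Cycling genes were nearly absent. Mki67 had a UMI in 2 of the 589 cells, Top2a in 3 and Cdk1 in 6. Cdh1, the classical epithelial cadherin, was seen in 2 cells, while Cdh11, a mesenchymal cadherin, had between 371.5 and 490.8 normalized CPM in every library. GFP was seen in 92.9% and Tomato, the reporter before recombination, in 4 cells.

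The share of epicardial mesothelial cells among kept cells was compared to ask whether their number among sorted cells went with the Dsp allele. It was 7.86% (95% Clopper-Pearson interval 6.90 to 8.91), 4.70% (3.76 to 5.79) and 8.77% (7.16 to 10.6) in Dsp_het libraries 1, 2 and 3. In control libraries 1, 2 and 3 it was 1.89% (1.38 to 2.53), 3.29% (2.46 to 4.30) and 3.09% (2.49 to 3.79). The groups did not overlap, and the means were 7.11 ± 2.14% in Dsp_het and 2.76 ± 0.756% in control (SD, n = 3 libraries each), a ratio of 2.58. The two-sided exact permutation p was 0.1, the smallest that 3 against 3 libraries allow. Intervals cover counting error only.

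The same cells gave 13.9%, 9.37% and 17.1% of the UMIs of kept cells in Dsp_het libraries, against 3.12%, 5.17% and 6.14% in control libraries. With every cell thinned to 1000 UMIs before the rule was applied, the mean share was 5.41% in Dsp_het and 1.99% in control. Per 100 endothelial-rule cells there were 12.1, 5.65 and 12.7 epicardial mesothelial cells in Dsp_het and 2.22, 4.20 and 4.05 in control libraries, a measure added after the data had been seen. Fibroblast-rule cells made up 21.3%, 6.34% and 8.22% of kept cells in Dsp_het and 4.94%, 5.61% and 5.35% in control libraries, so their share moved in the same direction. Whether yield in digestion or sorting differed between libraries was not tested.

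Depth per cell is the other property of the libraries that bears on these values. Median UMIs per epicardial mesothelial cell were 8540.5, 10870 and 17269 in Dsp_het libraries and 7811.5, 6934 and 10759 in control libraries, overlapping between groups (exact permutation p = 0.2). They exceeded those of the other kept cells in every library, which lay between 3624 and 6358. Median mitochondrial shares were 4.64%, 7.49% and 5.38% in Dsp_het and 5.49%, 5.29% and 4.28% in control libraries (exact permutation p = 0.5).

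**Figure D2:**
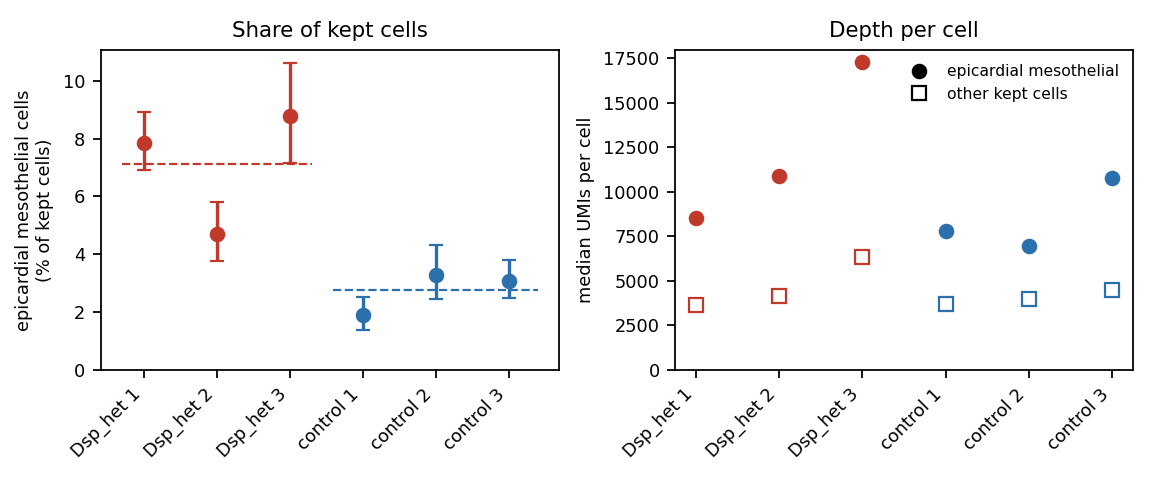
Left, share of epicardial mesothelial cells among kept cells per library (points, bars are 95% Clopper-Pearson intervals, dashed lines are group means of 7.11% in Dsp_het and 2.76% in control); the groups do not overlap. Right, median UMIs per cell in each library for these cells (filled circles) and other kept cells (open squares).

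Gene levels within the cells were compared between genotypes on UMIs summed per library, which came to 1874316, 847484 and 1601744 in Dsp_het and 324549, 370911 and 1011674 in control libraries. Of 8300 genes tested, 0 passed an adjusted p of 0.05 in either direction in edgeR's quasi-likelihood test (0%), and 287 had an unadjusted p under 0.05 (3.46%). DESeq2 also gave 0 genes, with 105 at an unadjusted p under 0.05. The libraries of the groups did not overlap for 347 genes that were higher in Dsp_het (4.18%) and 380 that were lower (4.58%). The median log2 fold change over all genes was -0.0016, and 49.7% of genes lay above 0. Leaving out the filter on low counts gave 34 genes higher and 22 lower among 16016 tested.

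Dsp, the targeted gene, lies on the plus strand of chromosome 13 (38151294 to 38198577) and was sparse. It gave 14, 6 and 15 UMIs in Dsp_het libraries 1, 2 and 3, which is 7.72, 7.38 and 9.61 normalized CPM. It gave 4, 7 and 18 UMIs in control libraries 1, 2 and 3, which is 12.6, 18.7 and 18.2 normalized CPM. All 3 Dsp_het libraries lay below all 3 control libraries. The means were 8.24 ± 1.20 in Dsp_het and 16.5 ± 3.41 in control (SD, n = 3 each; exact permutation p = 0.1, the smallest possible).

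The edgeR log2 fold change of Dsp was -1.02 (SE 0.36, unadjusted p = 0.0135) and did not pass over all genes (adjusted p = 0.9999). It stayed between -1.15 and -0.87 under the alternatives in which it was tested, with adjusted p-values from 0.958 to 1. A 3′ tag does not show whether the allele was recombined. In all other kept cells Dsp was at 0.173, 0.610 and 7.32 CPM in Dsp_het libraries 1, 2 and 3, and 0.893, 2.498 and 3.43 CPM in control libraries 1, 2 and 3. Dsp_het library 3 sets the Dsp_het mean of 2.701 CPM (control 2.27 CPM), and the Dsp_het libraries 1 and 2 were below all control libraries. The difference between the 2 genotype effects, -0.40 on the log2 scale (SE 1.12), did not pass (edgeR interaction, adjusted p = 1).

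Of 15 desmosome and plaque genes listed, Dsp included, 7 were tested. On the log2 fold change scale 4 were above 0 and 3 (Dsp, Pkp2 and Ppl) below 0, and 0 passed. Ppl (periplakin) was at 128.4, 178.4 and 190.9 normalized CPM in Dsp_het and 169.8, 195.1 and 161.9 in control libraries. Jup (plakoglobin) was at 77.7, 88.6 and 68.6 against 78.6, 80.2 and 56.7, and Perp, a desmosomal membrane protein, at 97.0, 83.7 and 83.3 against 72.3, 58.8 and 101.2. Pkp2 (plakophilin 2) and Dsg2 (desmoglein 2) had log2 fold changes of -0.43 (SE 0.28) and 0.47 (SE 0.37). Dsg1a, Dsg3, Dsc1 and Pkp1 had 0 UMIs in these cells.

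A list of keratins and other filament genes, with the nuclear lamin gene Lmna and Plec (plectin), was above 0 for 8 of 9 genes tested. The median log2 fold change was 0.17 and 0 passed. The list includes Krt19, a gene that chose the cells, so nothing is read from its centre. Krt19 was at 1399, 1474 and 1246 normalized CPM in Dsp_het and 1305, 1117 and 1335 in control libraries. Krt8 was at 367.0, 378.9 and 341.5 in Dsp_het against 330.1, 296.6 and 306.6 in control libraries, where the groups did not overlap. Of the 23 adherens and tight junction genes tested, 14 were above 0 with a median of 0.07. Cldn15 and F11r, both of tight junctions, had log2 fold changes of 0.08 (SE 0.15) and 0.02 (SE 0.17).

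Of 46 mesothelial and epicardial genes tested, 26 were above and 20 below 0, with a median log2 fold change of 0.04. They include the 7 genes that chose the cells, so nothing is read from their centre. Libraries did not overlap for 4 that were higher (Bnc1, Krt8, Ptgis and the rule gene Lrrn4, against 4.18% of all genes) and 1 that was lower (Slc9a3r1, against 4.58%). Wt1 (chromosome 2, 105126529 to 105173616, plus strand) was at 266.2, 329.7 and 284.5 normalized CPM in Dsp_het and 229.5, 288.6 and 240.8 in control libraries, overlapping, with a log2 fold change of 0.21 (SE 0.17). Tbx18 was at 129.5, 115.6 and 182.6 against 176.1, 133.6 and 130.5. Bnc1 (chromosome 7, 81966672 to 81992292, minus strand) was at 110.8, 130.4 and 158.3 in Dsp_het and 103.7, 74.8 and 103.2 in control libraries, and its log2 fold change of 0.49 was 0.29 without the 141 cells that also met another cell type's rule.

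Bnc1 was thus higher in each Dsp_het than in each control library, with a log2 fold change of 0.49 (SE 0.20, unadjusted p = 0.029) that did not pass in edgeR (adjusted p = 0.9999). In thinned cells Bnc1 had a UMI in 11.5%, 16.9% and 21.9% of cells in Dsp_het and 6.82%, 1.96% and 8.99% in control libraries (exact permutation p = 0.1, the smallest possible). These shares, like all thinned shares here, come from a single random draw. The control shares rest on only 44, 51 and 89 cells.

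Genes of retinoic acid synthesis and binding were split, 5 above and 5 below 0 of 10 tested. Aldh1a2 was at 386.3, 452.7 and 352.4 normalized CPM in Dsp_het and 443.3, 312.7 and 284.3 in control libraries. Its log2 fold change of 0.21 (SE 0.19) did not pass. In thinned cells it had a UMI in 34.5%, 36.1% and 36.5% of cells in Dsp_het and 31.8%, 29.4% and 19.1% in control libraries, without overlap (exact permutation p = 0.1). Aldh1a1, a related enzyme, was at 235.3, 279.3 and 226.2 against 314.4, 342.1 and 164.9.

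The reporter GFP was at 1337, 983.0 and 1515 normalized CPM in Dsp_het and 883.4, 660.1 and 880.3 in control libraries, without overlap. The log2 fold change was 0.66 (SE 0.19, unadjusted p = 0.0031), which did not pass in edgeR (adjusted p = 0.9999, and 0.042 to 1 over the alternatives). In thinned cells GFP had a UMI in 60.6%, 38.6% and 66.7% of cells in Dsp_het and 36.4%, 35.3% and 49.4% in control libraries. These shares overlapped between groups (exact permutation p = 0.2). In the other kept cells GFP was at 2938 CPM in Dsp_het and 2642 CPM in control, and the difference between the 2 genotype effects was 0.55 (SE 0.21, adjusted p = 0.926 in the edgeR interaction).

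Lcn2, Star, Bst1 and Sbsn, which encode an iron-siderophore carrier, a cholesterol transporter of mitochondria, an enzyme that cleaves NAD and the secreted suprabasin, were examined as genes enriched in this mesothelium. Lcn2 was at 22.0, 44.3 and 83.3 normalized CPM in Dsp_het and 28.3, 16.0 and 23.3 in control libraries. Star was at 52.9, 112.0 and 69.8 against 62.9, 45.4 and 41.5. For both the groups overlapped, with log2 fold changes of 1.14 (SE 0.46) and 0.66 (SE 0.29) that did not pass in edgeR (adjusted p = 0.9999 for both). Bst1 and Sbsn had log2 fold changes of 0.12 (SE 0.29) and 0.11 (SE 0.24).

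**Figure D3:**
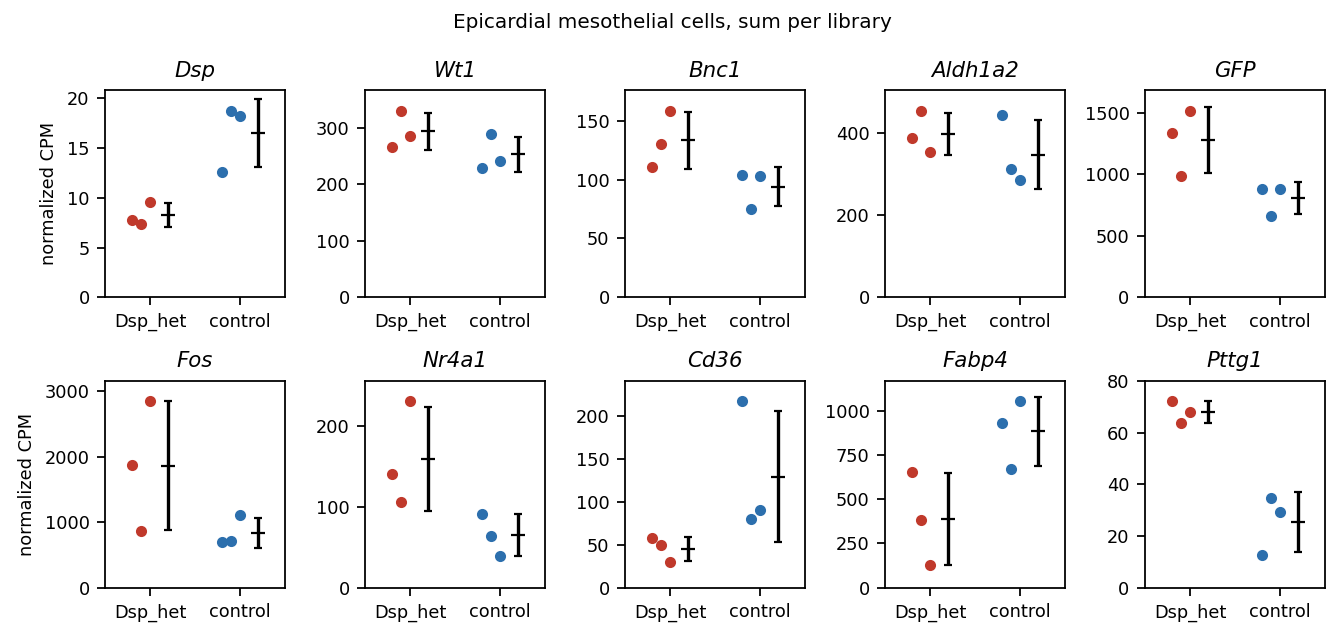
Normalized CPM of 10 genes in the summed epicardial mesothelial cells of each library (points, Dsp_het left and control right; black marks are mean and SD, n = 3 each), with the axis from 0. For Dsp the 3 Dsp_het libraries lie between 7.38 and 9.61 and the 3 control libraries between 12.6 and 18.7; no gene shown passed the adjusted test.

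Immediate early and heat shock genes, known to respond within minutes to stress and also to tissue digestion, stood furthest from 0 among the lists. Of 26 tested, 20 were above 0, the median log2 fold change was 0.39, and 11 had an unadjusted p under 0.05, against 3.46% of all genes. Of the 26, 0 passed over all genes, and the libraries of the groups were apart, with Dsp_het higher, for 6 (all genes 4.18%). The list was written with earlier results of these data known and no set test was run, so these counts are a description. Nr4a1, an orphan nuclear receptor, was at 140.5, 105.8 and 230.7 normalized CPM in Dsp_het and 91.2, 64.1 and 39.5 in control libraries (log2 fold change 1.44, SE 0.32; edgeR adjusted p = 0.608).

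Fos was at 1879, 868.6 and 2849 in Dsp_het and 697.9, 710.9 and 1108 in control libraries, and Fosb at 159.8, 82.4 and 369.7 against 9.43, 48.1 and 90.1. In both, Dsp_het library 3, also the library with the most UMIs per cell, was the highest and Dsp_het library 2 overlapped the control range. Jund was at 2035, 1651 and 2353 in Dsp_het and 1541, 1189 and 1515 in control libraries, without overlap. Hspb1, a small heat shock protein, was at 1772, 1844 and 2093 against 1242, 1203 and 1749. Without Dsp_het library 3 the median of the list was 0.14, and without Dsp_het library 2 it was 0.56. The part of tissue handling was not tested.

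Genes of the transition from epithelium to mesenchyme and of matrix were mostly slightly above 0. Of 18 transition genes tested, 13 were above 0 (median 0.15), and of 35 matrix and basement membrane genes 24 (median 0.07), with 0 passing. Col3a1, a fibrillar collagen, was at 1610, 1519 and 2412 normalized CPM in Dsp_het and 2521, 1604 and 1456 in control libraries. Sparc, a collagen-binding matrix protein, was at 1479, 1268 and 1725 against 1324, 1358 and 1439. Col18a1, the source of endostatin, was at 75.0, 62.7 and 105.1 in Dsp_het and 62.9, 50.8 and 46.6 in control libraries (log2 fold change 0.66, SE 0.24, not passing). Dcn had a log2 fold change of 0.01 (SE 0.15).

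Signalling lists were centred near 0. Of 23 TGF-beta and BMP genes 10 were above 0 (median -0.05), of 17 WNT genes 6 (median -0.03) and of 14 YAP and TEAD genes 6 (median -0.06). Secreted growth factors were above 0 for 8 of 24 (median -0.10). Tgfb1 was at 19.3, 12.3 and 10.9 normalized CPM in Dsp_het and 3.14, 21.4 and 12.1 in control libraries, and Tgfb2 at 57.3, 75.0 and 44.2 against 119.5, 58.8 and 41.5. Fgf1 and Fgf2 had log2 fold changes of -0.58 (SE 0.40) and -0.11 (SE 0.35). Rspo1, an enhancer of WNT signalling known in mesothelia, was at 445.8, 559.8 and 491.4 against 459.0, 419.6 and 509.0.

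C3, the central complement protein, was at 5835, 6815 and 6662 normalized CPM in Dsp_het and 10664, 8629 and 4123 in control libraries. Of 18 complement and acute phase genes tested, 9 were above and 9 below 0 (median 0.01). Of 30 interferon and antigen presentation genes 12 were above 0 (median -0.10). Mitochondrially encoded genes were above 0 for 11 of 13 (median 0.26), with Dsp_het library 2 the highest, as for mt-Nd3 at 660.2, 1485 and 1126 against 729.4, 686.8 and 545.4.

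The remaining lists, of cell cycle (4 of 13 above 0, median -0.06), p53 and apoptosis (8 of 22, -0.05), oxidative phosphorylation and glycolysis (15 of 27, 0.01), unfolded protein response (13 of 22, 0.08) and apical surface genes (8 of 17, -0.01), also held 0 passing genes. The apical surface list includes Msln, Upk1b and Upk3b, genes that chose the cells, so nothing is read from its centre. Cdkn1a, an inhibitor of the cell cycle, was at 499.3, 397.4 and 369.0 normalized CPM in Dsp_het and 509.3, 628.0 and 607.1 in control libraries, without overlap. Its log2 fold change of -0.46 (SE 0.17) did not pass.

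Adipogenic genes were below 0 for 11 of 15 tested (median -0.12), led by genes of fatty acid uptake. Cd36, a fatty acid translocase of capillaries and fat cells, was at 57.3, 49.2 and 30.1 normalized CPM in Dsp_het and 216.9, 80.2 and 90.1 in control libraries, without overlap. Its log2 fold change was -1.42 (SE 0.33, edgeR adjusted p = 0.841). Without the 141 cells that also met another cell type's rule it was 0.00 (adjusted p = 0.9999). Fabp4, the fatty acid carrier, was at 651.4, 382.6 and 129.4 against 927.4, 668.1 and 1052, and its log2 fold change of -1.19 (SE 0.38) was -0.62 without those cells. Fabp4 had 543.9 CPM pooled over epicardial mesothelial cells and 22545 CPM in endothelial-rule cells. Emcn, an endothelial sialomucin, was at 20.4, 9.84 and 4.49 in Dsp_het and 25.1, 34.7 and 38.4 in control libraries.

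The genes with the smallest p-values, which all missed the threshold, had these levels. Pttg1 (chromosome 11, 43420250 to 43426251, minus strand), securin, was at 72.2, 64.0 and 67.9 normalized CPM in Dsp_het and 12.6, 34.7 and 29.3 in control libraries (log2 fold change 1.34, SE 0.26, edgeR adjusted p = 0.604). Tppp3, a tubulin-binding protein, was at 53.5, 23.4 and 72.4 against 6.29, 8.02 and 15.2 (2.15, SE 0.44). Igfbp3, which binds insulin-like growth factors, was at 66.1, 50.4 and 39.1 against 15.7, 21.4 and 20.2 (1.41, SE 0.30). Without the cells that met another rule Igfbp3 had a log2 fold change of 0.59 and Pttg1 one of 1.62.

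For those 3 genes the Dsp_het libraries lay above all control libraries, as they did for 4.18% of all genes. So they did for Il3ra, a cytokine receptor chain (log2 fold change 1.47), Nov, a CCN matricellular protein (2.79), Tnfrsf12a, the TWEAK receptor (1.34), and Bmp6 (1.41). Nov rested on 71, 32 and 19 UMIs in Dsp_het and 2, 1 and 4 UMIs in control libraries.

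On the lower side, Alad, an enzyme of heme synthesis, was at 255.7, 306.3 and 185.2 normalized CPM in Dsp_het and 405.6, 315.3 and 538.3 in control libraries (log2 fold change -0.78, SE 0.22, edgeR adjusted p = 0.9999). Ogfrl1 was at 13.8, 14.8 and 12.8 against 28.3, 29.4 and 27.3, and Myo5b, a motor of apical recycling, at 32.5, 28.3 and 56.4 against 75.5, 61.5 and 78.9. Cd36 and Emcn, whose levels are given above, were also among the 10 smallest p-values on this side (log2 fold changes -1.42 and -1.49). The remaining genes were Btbd9, Lims2, Adgrg1, Scd2 and Ppfibp2, with log2 fold changes from -1.18 to -0.60. That of Lims2 was -0.81 and, without the 141 cells that also met another cell type's rule, -0.43. In all of these genes the groups did not overlap, as for 4.58% of all genes in this direction. The genes on both sides were chosen by small p-values of the same comparison, so their separation adds no support.

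**Figure D4:**
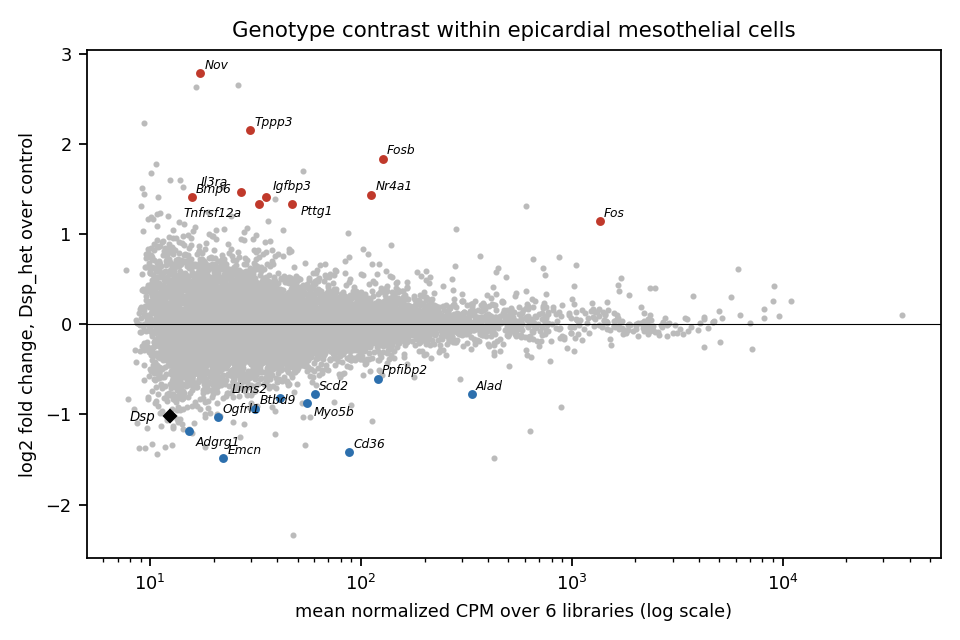
Each point is 1 of the 8300 genes tested, with its mean normalized CPM over the 6 libraries (log scale) and its log2 fold change, Dsp_het over control. The 10 smallest p-values on each side are named (red above 0, blue below 0) with Dsp (black diamond, -1.02); none passed the adjusted threshold.

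The genotype effect in epicardial mesothelial cells was set against that in all other kept cells of the same libraries. Of 12792 genes, 0 differed (edgeR interaction, adjusted p under 0.05, 0%), and 651 had an unadjusted p under 0.05 (5.09%). Igfbp3 averaged 50.2 CPM in Dsp_het and 18.9 CPM in control epicardial mesothelial cells, and 184.5 and 163.6 CPM in Dsp_het and control other cells (difference 1.40, SE 0.25, adjusted p = 0.462). Actb and Actg1, the cytoplasmic actins, both had a difference of 0.59 (SE 0.13 for each), with Actb at 2715 CPM in Dsp_het and 2101 CPM in control epicardial mesothelial cells and 3731 and 4111 CPM in Dsp_het and control other cells. Without Dsp_het library 1, 5 genes had an effect above and 23 below that of the other cells.

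Below 0, Igfbp6 had a difference of -1.71 (SE 0.33), with 4528 and 5311 CPM in Dsp_het and control epicardial mesothelial cells and 250.9 and 77.5 CPM in Dsp_het and control other cells. Upk3b is described without a test, because the rule that chose the cells used it and limited it in the other cells. It averaged 2091 CPM in Dsp_het and 2121 CPM in control epicardial mesothelial cells, and 4.48 and 1.19 CPM in Dsp_het and control other cells. Igfbp6 in the other cells was at 425.8, 165.9 and 161.1 CPM in Dsp_het libraries 1, 2 and 3. In control libraries 1, 2 and 3 it was at 89.4, 68.6 and 74.4 CPM. The fibroblast-rule share of kept cells was 21.3%, 6.34% and 8.22% in Dsp_het and 4.94%, 5.61% and 5.35% in control libraries. The share of epicardial mesothelial cells was also higher in the Dsp_het libraries. The part of either share in the level of Igfbp6 in other cells was not tested.

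The cells also differed among themselves. The excess of the variance over the mean, divided by the squared mean, was computed in cells thinned to 1000 UMIs, where 0 is the value for counting noise alone. Its median was 0.187 over 728 genes with a mean of at least 0.2 thinned UMIs. The 7 genes of the rule had a median of 0.323, Wt1 -0.081 and Dcn 0.475. The 20 most variable genes lay between 1.81 and 29.8.

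Gsn, gelsolin, and Fabp4 were the most variable, at 29.8 and 17.3. Gsn was at 269.4, 219.5 and 150.5 CPM in Dsp_het and 49.3, 1796 and 59.3 CPM in control libraries, against 17940 CPM in fibroblast-rule cells, and 6.45% of thinned epicardial mesothelial cells held a UMI. Fabp4 was held by 14.4% of them, against 99.5% of thinned endothelial-rule cells. Both are thus genes that another cell type carries at far higher levels.

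Fxyd3, a regulator of ion pumps, had an excess variance of 3.20 and was at 382.2 CPM in epicardial mesothelial cells against 0.309 CPM in endothelial-rule and 1.39 CPM in fibroblast-rule cells. Wfdc2, a secreted protease inhibitor-like protein, had 1.82, at 329.2 CPM against 0.570 and 0.107 CPM in the same 2 populations. Sbsn had 2.95 and was held by 16.8% of thinned cells, and Cpe, carboxypeptidase E, had 1.84 and was held by 27.2%. Mt1, a metallothionein, was at 360.2 CPM in epicardial mesothelial cells, against 212.6 CPM in fibroblast-rule, 539.1 CPM in macrophage-rule and 2.71 CPM in endothelial-rule cells. It had an excess variance of 3.51, with 68.5% of its thinned UMIs in the tenth of cells that held most.

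Stress and growth control genes formed another group among the 20. Ier3, Cyr61, Ier2, Atf3 and Nfkbia, all known to be induced quickly, had excess variances of 4.13, 4.12, 2.52, 2.47 and 1.96, and the cell cycle inhibitors Cdkn1a and Cdkn1c 3.71 and 2.35. Atf3 had a UMI in 16.8%, 10.8% and 38.5% of thinned cells in Dsp_het libraries and 15.9%, 11.8% and 19.1% in control libraries. Between pairs of the 20 genes the correlation over cells was weak. The highest median over 6 libraries was 0.258, for Lgals1 and Clec3b (0.11 to 0.60 over libraries), in cells thinned to 1000 UMIs. Lgals1 was at 790.5 CPM in epicardial mesothelial cells against 1522 CPM in fibroblast-rule cells, and Clec3b at 415.9 against 2800 CPM.

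**Figure D5:**
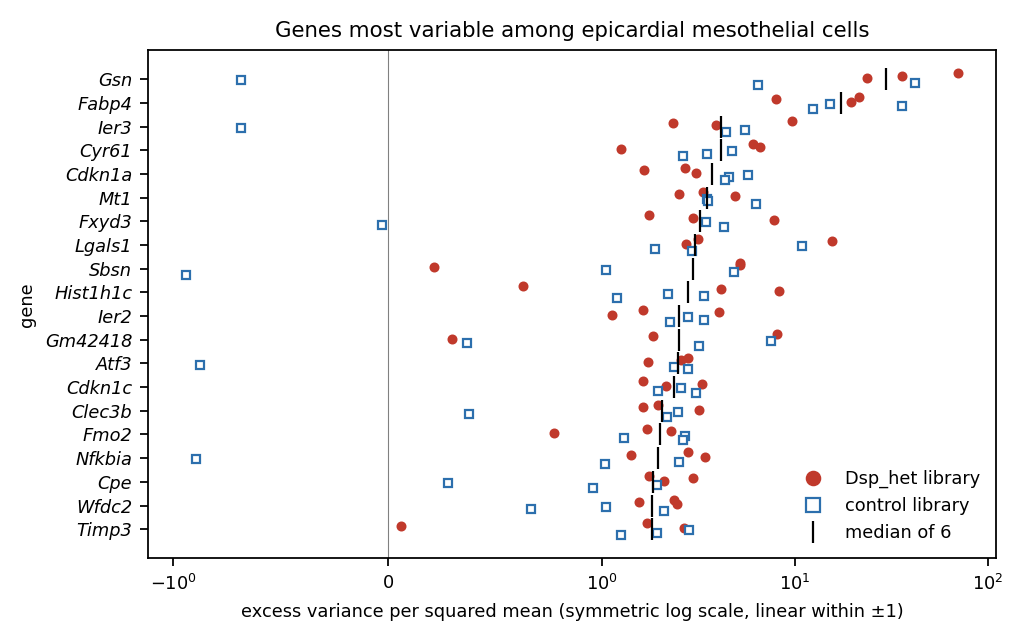
Excess variance per squared mean of the 20 most variable genes in each library (filled circles Dsp_het, open squares control) with the median of the 6 libraries (vertical tick), on a symmetric log axis that is linear within 1 of 0. Gsn and Fabp4 have the highest medians, 29.8 and 17.3, and single libraries spread widely.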

How the data were processed

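The authors deposited 1 matrix of raw UMI counts (31055 genes, 18283 barcodes) with each barcode's deposited total count, which equalled the matrix sum for all 18283 barcodes. The submitters' processing notes name GRCm38 and Seurat. No source used here names an aligner, a counter or their settings. Each barcode's suffix was matched to the sample number in the labels, and 0 columns stayed unmatched.

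Counts were summed over epicardial mesothelial cells per library and tested with edgeR 4.0.16 (quasi-likelihood, TMM, filterByExpr with a minimum count of 10, Benjamini-Hochberg over all genes, two-sided, threshold 0.05). Normalized CPM is CPM after TMM, and plain CPM is not scaled. The interaction fit used 12 sums with library as a block. DESeq2 1.42.0 was another tool. Shares were compared by exact permutation over libraries. Gene positions are from GENCODE M21. The edgeR step was also run on simulated data, with an outcome that is not reported here. That simulation gave every gene the same dispersion. It placed changes only in genes with higher counts, so it does not cover sparse genes such as Dsp. Alternatives changed normalization, filters, the cell rule, depth and libraries.

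Named genes were the 7 rule genes, the 30 genes highest over other cells in every library, the 10 smallest p-values in each direction, 27 genes always included, the 8 smallest interaction p-values in each direction, the 20 most variable and up to 4 highest members of a list. Tomato and Xist were too low or too uneven to be tested. Others named were chosen after their values were seen. The cells, gene lists and tests were chosen with earlier results of these data known. Depth ranged from 324549 to 1874316 UMIs per summed library. Some listed genes are not reported here.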

Additional observations from a re-analysis of the deposited data

Results flagged for a closer look

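Outside the kept cells, 616 of 5790 deposited barcodes (10.6%) held at least 4 of the 7 mesothelial genes, a signal in barcodes that the main comparisons did not use. The alternatives with all occurrences of a barcode and with at least 500 UMIs used some of them. Their median was 759 UMIs, 474 had under 1000 UMIs, and 611 carried a barcode that was an epicardial mesothelial cell in another library.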

How the results depend on the processing

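Over the alternatives run, the share of epicardial mesothelial cells kept its direction, with log2 ratios of Dsp_het to control means between 1.16 and 1.59, and the groups of libraries stayed apart wherever unpaired libraries were compared. With a replicate block, which paired libraries by label number, the log2 ratio was 1.36 (exact sign-flip permutation p = 0.25, the smallest that this pairing allows). The gene test with that block again called 0 genes in each direction. Libraries of the same number did not deviate together (correlations of 0.043, -0.015 and -0.059), so the numbers were not taken as pairs.

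Counts of genes within the cells were 34 higher and 22 lower without the filter on low counts, and 0 to 5 higher when 1 library was left out (5 without Dsp_het library 2, 2 without Dsp_het library 3). For the interaction they were 9 above and 62 below 0 without the filter, and 0 to 5 above and 0 to 23 below when 1 library was left out (23 below without Dsp_het library 1, 4 without Dsp_het library 2). The cause of these calls was not tested. With 1 library left out, the log2 ratio of mitochondrial shares lay between -0.0021 and 0.358 and the difference in thinned Wt1 detection between -0.046 and 6.71 percentage points.

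Of 879 gene values under alternatives, 823 kept direction and side of the threshold, 23 passed it and 33 in 13 genes changed sign, none of them passing. Without cells that met another rule, Cd36 was 0.0035, Tbx18 0.049, Bst1 -0.042 and Ppl 0.037. With thinned cells, Tbx18 was 0.417, Bst1 -0.080, Sbsn -0.029 and Col1a1 -0.066. Tbx18 was also 0.025 without the filter, 0.017 with all occurrences of a barcode, 0.011 at 2000 UMIs and 0.0067 with 5 markers, and Pdgfra was -0.027 with a term for Xist. Leaving out 1 library gave log2 fold changes from -0.224 to 0.126 for Tbx18, -0.4075 to 0.098 for Aldh1a1, -0.241 to 0.388 for Bst1, -0.187 to 0.353 for Sbsn and -0.121 to 0.594 for Tgfb1. They ran from -0.596 to 0.272 for Tgfb2, -0.334 to 0.021 for Fgf2, -0.458 to 1.06 for Pdgfra, -0.153 to 0.352 for Col1a1, -0.024 to 0.2692 for Jup, -0.027 to 0.448 for Perp and -0.1989 to 0.090 for Ppl.

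Depth limits these comparisons: Dsp rested on 4 to 18 UMIs per library, and the smallest control library held 44 cells.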
